A study of Mus musculus with 6 samples.

Results

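The genes described here encode Polycomb repressive complex 2 (PRC2), its cofactor JARID2, and enzymes that work against Polycomb marks. They were chosen by name as 9 of the 24015 gene symbols in the count files, and all 9 were found and tested: Ezh1, Ezh2, Eed, Suz12 and Jarid2 on the PRC2 side (5 genes), and Kdm6b, Asxl1, Asxl2 and Bap1 on the opposing side (4 genes). RNA sequencing was done on 6 libraries of sorted mouse leukaemia stem and progenitor cells. The acute myeloid leukaemia was driven by the MLL-AF9 fusion and had been started in lineage-negative, Kit-positive marrow progenitors of NIKERT2 mice. In both groups the cells carry a transgene for the kinase NIK behind a loxP-flanked stop at the Rosa locus, and CreERT2, a Cre recombinase that tamoxifen activates, also at Rosa. The untreated group (3 libraries, LSPC) kept the stop, and the tamoxifen group (3 libraries, LSPCT) came from leukaemic mice given tamoxifen. The sources used here give no dose, no timing and no age of the mice. Tamoxifen, active Cre and NIK came together, so their effects cannot be told apart. It is not stated that the replicates were separate mice, and p-values therefore reflect only how these samples vary, possibly for technical reasons.

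PRC2 adds methyl groups to lysine 27 of histone H3 (H3K27), a mark of silenced genes. EZH2 or its relative EZH1 is the catalytic subunit, SUZ12 is the scaffold, and EED binds the finished mark and stimulates the enzyme. The complex exists in alternative forms that share this core: PRC2.1 carries a Polycomb-like protein (PHF1, MTF2 or PHF19) with EPOP or PALI, and PRC2.2 carries JARID2 and AEBP2. KDM6B and KDM6A remove the methyl groups, and BAP1, activated by an ASXL protein, removes the ubiquitin that Polycomb complex 1 places on histone H2A. MLL-AF9 leukaemia cells in mice are known to depend on PRC2, and ASXL1 and EZH2 are mutated in human myeloid malignancies.

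Jarid2 was the member that passed the test, so the 300 bases around its annotated starts (250 before and 50 after) are shown first, beside those of Ezh2 and Suz12, which did not pass. Both Jarid2 windows lie on the plus strand, at chr13:44730524-44730823 and chr13:44731021-44731320, the Ezh2 window on the minus strand at chr6:47594981-47595280, and the Suz12 window on the plus strand at chr11:79992856-79993155 (RefSeq, GRCm38.p6; the counts were made on another build). Capitals mark matches, on either strand, to the E2F motifs TTTGGCGC and TTTCCCGC in Ezh2 and Suz12 and to the wide NF-kB consensus in Jarid2. E2F factors drive cell cycle genes.
Jarid2, upstream start: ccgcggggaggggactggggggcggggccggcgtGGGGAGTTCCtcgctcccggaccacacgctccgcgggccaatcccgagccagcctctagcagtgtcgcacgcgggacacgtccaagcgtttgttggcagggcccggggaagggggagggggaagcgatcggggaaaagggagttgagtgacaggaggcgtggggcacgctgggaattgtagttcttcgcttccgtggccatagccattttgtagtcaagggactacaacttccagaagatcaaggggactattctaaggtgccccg
Jarid2, downstream start: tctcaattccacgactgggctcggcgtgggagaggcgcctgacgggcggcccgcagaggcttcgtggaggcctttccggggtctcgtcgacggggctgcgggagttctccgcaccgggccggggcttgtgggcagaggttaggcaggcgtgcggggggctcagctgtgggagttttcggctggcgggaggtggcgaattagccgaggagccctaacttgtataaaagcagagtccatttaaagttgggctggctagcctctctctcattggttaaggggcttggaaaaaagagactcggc
Ezh2: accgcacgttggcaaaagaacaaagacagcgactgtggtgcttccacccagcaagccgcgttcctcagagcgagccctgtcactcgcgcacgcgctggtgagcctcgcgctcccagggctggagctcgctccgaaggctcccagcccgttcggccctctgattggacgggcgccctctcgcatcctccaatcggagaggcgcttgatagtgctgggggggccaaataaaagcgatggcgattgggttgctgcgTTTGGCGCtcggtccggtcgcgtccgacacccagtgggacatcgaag
Suz12: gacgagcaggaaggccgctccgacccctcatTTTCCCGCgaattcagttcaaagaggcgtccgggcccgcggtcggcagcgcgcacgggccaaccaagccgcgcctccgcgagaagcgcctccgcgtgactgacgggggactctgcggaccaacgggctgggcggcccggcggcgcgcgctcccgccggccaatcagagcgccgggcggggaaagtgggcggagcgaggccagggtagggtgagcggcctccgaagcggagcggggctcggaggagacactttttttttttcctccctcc

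Such windows were matched for 8 of the 9 members (9 windows, with both for Jarid2). Each held more CpG than the median promoter, with 13 to 50 CpG dinucleotides against a median of 7 over 32851 promoters of the same length. The lowest, that of Asxl1, was at percentile 62.9 of these promoters. An E2F motif stood in 2 of the 9 windows, those of Ezh2 and Suz12, against 1.56% of all promoters. Both E2F motifs hold a CpG themselves, and the windows were not compared with promoters of like CpG content, so these shares show no enrichment. The NF-kB consensus was searched on both strands in 2 forms, and the answer differed between them. The narrow form was in 0 of the 9 windows and in 3.24% of all promoters. The wide form was added after the result of the narrow one was known. It was in 2 of the 9, the upstream Jarid2 window and that of Asxl1, and in 8.46% of all promoters. Here too no comparison was made with promoters of like base content, so these shares show no enrichment. The window of Phf19, a PRC2 gene outside the members that fell with tamoxifen, also held the wide form and an E2F motif. A match is a description of these letters only, and its absence says nothing about binding of a factor.

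Total counts were 19999071 to 26773176 per library, and levels are given as TMM-scaled CPM, counts scaled to library size. A count of 0 allows up to 3 counts, which is 0.111 to 0.150 CPM depending on the library, for counting error only. Map3k14, the gene of NIK, was higher in every tamoxifen library (26.5 ± 2.27 CPM untreated and 160.0 ± 30.3 CPM with tamoxifen, SD, n = 3). All 10 markers of myeloid leukaemia progenitors were expressed in all 6 libraries, with a summed level of 2472 to 2829 CPM untreated and 2608 to 2922 CPM with tamoxifen; 2 fell, Flt3 (log2 -1.20, edgeR adjusted p = 0.00153) and Cebpa (-0.43, 0.0337), and 8, Kit and Cd34 among them, did not pass. Macrophage markers moved with the groups, and all 8 rose. Their summed level was 153 to 175 CPM untreated and 635 to 1452 CPM with tamoxifen, highest in tamoxifen replicate 1. Most of this sum came from Vcam1 (75.5 to 82.7 CPM untreated, 456 to 930 CPM with tamoxifen) and Emr1, now Adgre1 (69.6 to 92.3 and 142 to 206 CPM). The other macrophage markers were lower, with C1qa at 0.339 to 3.63 CPM untreated and 8.03 to 92.6 CPM with tamoxifen. Summed neutrophil markers ran from 25.4 to 2099 CPM untreated and from 190 to 516 CPM with tamoxifen, and none of 9 passed. Summed T and NK cell markers were 18.3 to 22.2 and 29.0 to 79.7 CPM, with Lck the one that passed and Ncr1 at 0 throughout. Summed B cell markers were 40.7 to 45.6 and 27.02 to 49.2 CPM, nearly all from Cd79b, with Pax5 at 0 throughout. Summed erythroid and megakaryocyte markers did not overlap, at 128 to 138 CPM untreated and 97.4 to 126 CPM with tamoxifen. Most of this came from Tfrc, and none of 3 tested passed. The globin genes Hba-a1 and Hbb-b1 were at 0. How reads with several positions were treated is not given, so this does not show that globin RNA was absent. Summed endothelial and stromal markers did not overlap either, at 131 to 172 and 61.8 to 106 CPM; Pecam1, which makes up most of the sum, fell (log2 -1.09, edgeR adjusted p = 0.00391), Col1a1 rose (1.75, 0.0170), and Cdh5 was at 0 to 1.05 CPM. The part of these cell types in the results that follow was not tested. In bulk samples, fewer cells of a type and less RNA per cell cannot be told apart.

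Of the 9 members, 1 rose with tamoxifen, Jarid2, and none fell (two-sided quasi-likelihood test of edgeR, threshold of 0.05 on the adjusted p). At an unadjusted p under 0.05 there were 2, Jarid2 and Bap1, where 31.9% of all genes tested reached it, and with DESeq2 as with limma voom 1 passed. Over all 12729 genes tested, 17.2% passed, 8.96% as higher and 8.24% as lower. The median log2 difference between tamoxifen and untreated libraries was -0.01 over the members, against -0.003 over all genes tested, and the median absolute difference was 0.14 against 0.23. The groups did not overlap for 2 members, Jarid2 above and Bap1 below, where 37.7% of all genes tested did not overlap, 18.1% with tamoxifen above and 19.6% with tamoxifen below. The count of members that passed was 0 without untreated replicate 1 and 0 when a change of more than 1.5-fold was required.

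**Figure D1:**
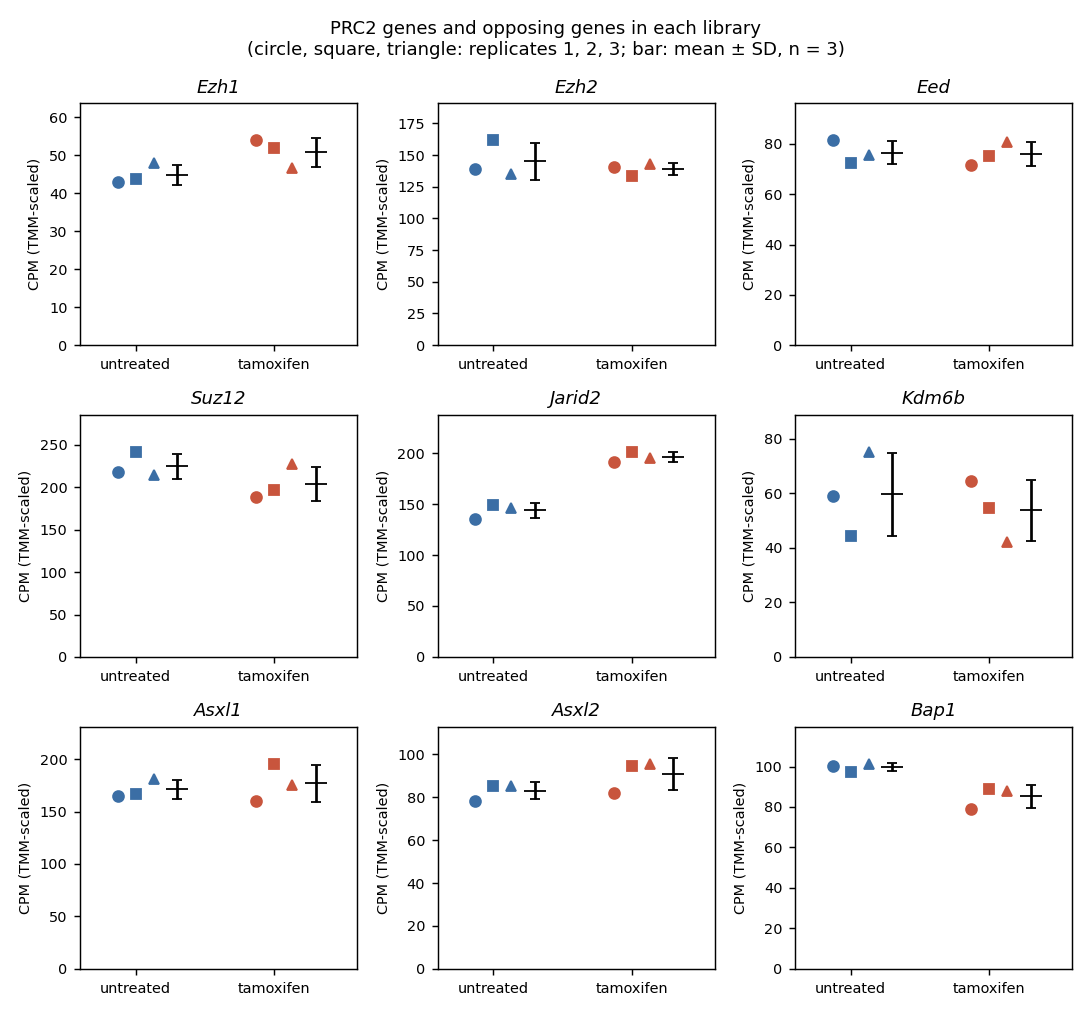
TMM-scaled CPM (vertical axes, each from 0) of the 9 members in 3 untreated (blue) and 3 tamoxifen (red) libraries; circles, squares and triangles are replicates 1, 2 and 3, and bars show the mean ± SD. All 3 tamoxifen values of Jarid2 (191.6 to 200.9) lie above its untreated values (135.4 to 149.4), and all 3 of Bap1 (78.8 to 89.1) lie below (97.4 to 101.2).

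Jarid2 encodes a JmjC-domain protein without demethylase activity that recognises ubiquitinated H2A and helps to bring PRC2.2 to chromatin. It stood at 135.4, 149.4 and 146.4 CPM in untreated replicates 1 to 3 and at 191.6, 200.9 and 195.6 CPM in tamoxifen replicates 1 to 3. Every tamoxifen library was higher than every untreated one, and the gap between the groups was larger than the spread within them. The fold was 1.36 (95% interval 1.20 to 1.55; log2 0.45, SE 0.08; edgeR adjusted p = 0.00766). By size this absolute log2 change exceeded that of 70.9% of the genes tested. The call was lost without untreated replicate 1, the lowest value (log2 0.41, edgeR adjusted p = 0.0547). Without tamoxifen replicate 1, where macrophage markers were highest, the log2 change was 0.47 (edgeR adjusted p = 0.00576); these markers were raised in all 3 tamoxifen libraries, and their part in the difference was not tested.

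Ezh2, the catalytic subunit of dividing cells, was at 138.7, 161.7 and 135.1 CPM untreated and at 140.6, 133.9 and 143.3 CPM with tamoxifen. All 3 tamoxifen values lay within or just under the untreated range. The fold was 0.96, with a 95% interval of 0.82 to 1.12 (log2 -0.06, SE 0.10; edgeR adjusted p = 0.715), so these libraries leave room for a change of that interval's size in either direction. Ezh1, the less active paralogue that is prominent in resting cells, was at 43.1, 43.7 and 47.9 CPM untreated and at 53.9, 51.8 and 46.5 CPM with tamoxifen. Tamoxifen replicate 3 fell inside the untreated range and the other tamoxifen libraries lay above it. Ezh1 did not pass (fold 1.13, 95% interval 0.98 to 1.31; edgeR adjusted p = 0.234).

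Eed, the reader of the methyl mark, had 81.5, 72.3 and 75.7 CPM untreated and 71.6, 75.1 and 80.9 CPM with tamoxifen. The groups overlapped almost fully, and the log2 difference of -0.01 had a 95% interval of -0.22 to 0.20 (edgeR adjusted p = 0.950). Suz12, the scaffold, had 217.5, 241.5 and 215.1 CPM untreated and 188.7, 196.4 and 227.1 CPM with tamoxifen. Tamoxifen replicates 1 and 2 were lower than all untreated libraries and replicate 3 was not, and Suz12 did not pass (log2 -0.14, 95% interval -0.37 to 0.09; edgeR adjusted p = 0.380). None of the 4 core genes passed under any of 15 alternative settings, where the direction of Ezh2 and Eed was not stable.

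Levels of different genes can be compared only per length. Length was that of the merged exons of protein-coding transcripts, untranslated parts included, in GENCODE M21, which is not the annotation of the counts. By this length Ezh2 and Suz12 were the highest members in the untreated libraries, at 51.8 ± 5.16 and 51.4 ± 3.34 CPM per kilobase (SD, n = 3). They did not differ beyond their spread. Eed followed at 37.0 ± 2.25, then Bap1 at 28.8 ± 0.581, Asxl1 at 24.5 ± 1.31 and Jarid2 at 23.3 ± 1.20 CPM per kilobase, where Asxl1 and Jarid2 differed by no more than their spread. The lowest were Kdm6b at 8.95 ± 2.30, Ezh1 at 7.38 ± 0.431 and Asxl2 at 6.96 ± 0.335 CPM per kilobase, again within their spread of each other. With tamoxifen, Jarid2 reached 31.8 ± 0.763 CPM per kilobase, above Bap1 at 24.7 ± 1.65 and Asxl1 at 25.3 ± 2.55. With the longest coding transcript as the length, Ezh1 and Kdm6b exchanged places and the other ranks stayed. Ezh1 was then at 10.67 and Asxl2 at 6.961 CPM per kilobase, so the closeness of Ezh1 and Asxl2 depended on the length chosen.

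Ratios between counts within a library need no gene length and no scaling factor, and 3 were compared. The log2 ratio of Jarid2 to the mean of Ezh2, Eed and Suz12 was 0.004, 0.08 and 0.17 untreated and 0.63, 0.68 and 0.50 with tamoxifen. All tamoxifen values were above all untreated values, a difference of 0.52 or 1.43-fold (exact two-sided permutation p = 0.1, the smallest p that 3 against 3 libraries allow; adjusted over the 3 ratios, 0.2). The log2 ratio of Ezh2 to Ezh1 was 1.69, 1.89 and 1.496 untreated and 1.38, 1.37 and 1.62 with tamoxifen, lower by a mean of 0.23 with the groups overlapping (exact permutation p = 0.2; adjusted, 0.2). For Asxl2 to Asxl1 the difference was 0.08 with the groups overlapping (exact permutation p = 0.2; adjusted, 0.2).

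**Figure D2:**
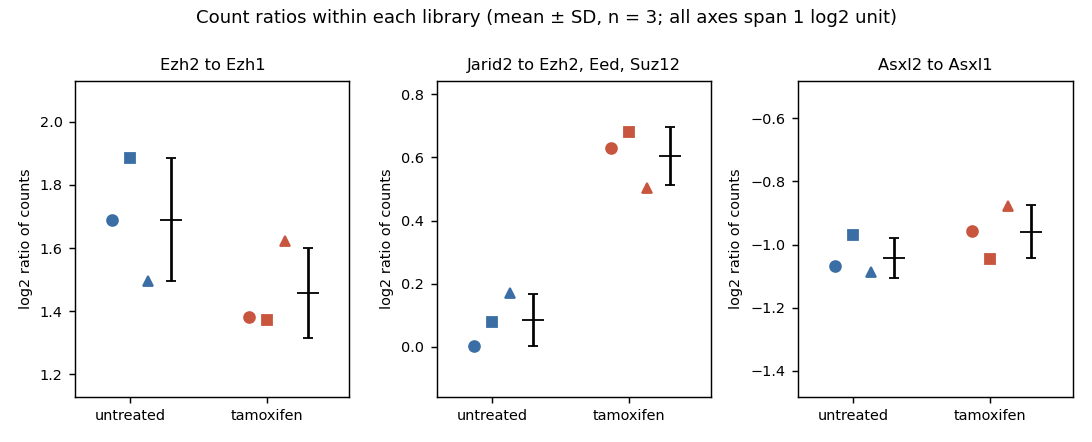
Log2 ratios of raw counts within each library (vertical axes, all spanning 1 log2 unit) for 3 untreated (blue) and 3 tamoxifen (red) libraries, with replicates 1, 2 and 3 as circles, squares and triangles and the mean ± SD as bars. Jarid2 relative to the core genes is at 0.004 to 0.17 untreated and at 0.50 to 0.68 with tamoxifen, and the other ratios overlap between groups.

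Of all genes tested, 8.24% fell and 8.96% rose. Among 9 further PRC2 genes, 8 were tested: none rose, 2 fell and 6 did not pass (median log2 -0.17). Both that fell belong to PRC2.1. E130012A19Rik, now named Epop, encodes a subunit that links PRC2 to elongin BC. It was at 30.9, 29.7 and 28.0 CPM untreated and at 13.7, 13.6 and 11.1 CPM with tamoxifen. The tamoxifen values were all less than the lowest untreated value by a wide margin, a fold of 0.43 (95% interval 0.35 to 0.53; log2 -1.21, SE 0.13; edgeR adjusted p = 0.000716), and it passed under all 15 alternatives.

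Phf19, a Polycomb-like protein gene whose product binds CpG-rich DNA and methylated H3K36, was at 65.97, 58.7 and 60.1 CPM untreated and at 42.4, 45.9 and 39.2 CPM with tamoxifen. The groups were apart, with a fold of 0.69 (95% interval 0.59 to 0.80; log2 -0.54, SE 0.09; edgeR adjusted p = 0.00709). It passed in 14 of 15 alternatives, the exception being the one that required more than a 1.5-fold change.

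The other Polycomb-like genes did not pass. Mtf2 was at 115.5, 121.0 and 121.6 CPM untreated and at 112.6, 95.7 and 108.3 CPM with tamoxifen, lower in each tamoxifen library but with a log2 difference of -0.18 (95% interval -0.39 to 0.03; edgeR adjusted p = 0.221). Phf1 differed by -0.27 (edgeR adjusted p = 0.268), and Lcor, which encodes PALI as well as the corepressor LCOR, by -0.16 at 3.60 to 6.96 CPM (edgeR adjusted p = 0.748). On the PRC2.2 side Aebp2, the DNA-binding partner of JARID2, had 126.7, 125.1 and 117.1 CPM untreated and 124.1, 142.9 and 142.7 CPM with tamoxifen. Tamoxifen replicate 1 lay inside the untreated range, and Aebp2 did not pass (log2 0.15, 95% interval -0.06 to 0.36; edgeR adjusted p = 0.300).

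Taking the 5 genes particular to PRC2.1 and the 2 particular to PRC2.2, a split made after the values were seen and not tested as one, the log2 differences were below 0 for 5 of 5 PRC2.1 genes, of which 2 fell, and above 0 for both PRC2.2 genes, of which 1 rose, while 50.4% of all genes tested were below 0. Among the PRC2.1 genes the 95% intervals of Phf1 (-0.62 to 0.08), Mtf2 (-0.39 to 0.03) and Lcor (-0.82 to 0.50) spanned 0. That of the PRC2.2 gene Aebp2 (-0.06 to 0.36) did so too, so the signs of these genes are not settled. Lcor turned to 0.080 without tamoxifen replicate 1. The histone-binding subunits shared by both forms, Rbbp4 and Rbbp7, also serve in other complexes. Rbbp4 differed by 0.12 (edgeR adjusted p = 0.367). Rbbp7 was at 238.4, 256.4 and 225.0 CPM untreated and at 307.2, 264.4 and 304.2 CPM with tamoxifen, higher in each tamoxifen library but short of the threshold (log2 0.28, edgeR adjusted p = 0.0746), which it passed with DESeq2 (adjusted p = 0.0235). AU022751, now Ezhip, an inhibitor of PRC2 in germ cells, had no count outside tamoxifen replicate 3 (0.0885 CPM) and was not tested.

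**Figure D3:**
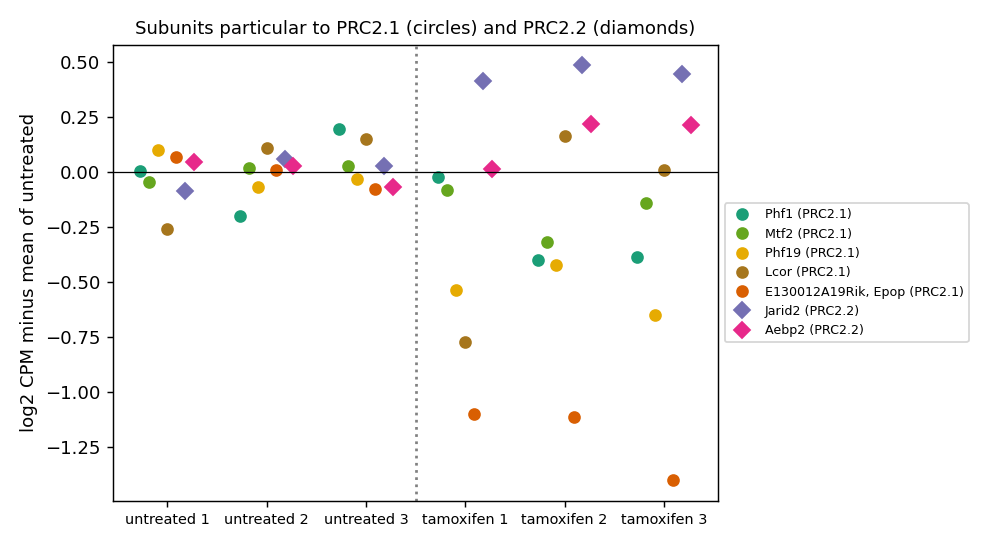
Log2 CPM of each subunit minus its mean over the untreated libraries (vertical axis), for the 6 libraries (horizontal axis); circles are PRC2.1 genes and diamonds PRC2.2 genes. In the tamoxifen libraries Jarid2 is at 0.42 to 0.48, Phf19 at -0.65 to -0.42 and E130012A19Rik (Epop) at -1.40 to -1.10, while Phf1, Mtf2, Lcor and Aebp2 lie near 0 in at least 1 tamoxifen library.

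On the opposing side, Kdm6b, the inducible H3K27 demethylase known as a target of inflammatory signals in macrophages, was the most variable member. It was at 59.2, 44.5 and 75.1 CPM untreated and at 64.6, 54.6 and 42.0 CPM with tamoxifen. The spread within each group exceeded the difference between them (log2 -0.15, 95% interval -0.63 to 0.33; edgeR adjusted p = 0.675), and its direction turned without untreated replicate 3 (0.06) or tamoxifen replicate 3 (0.01). In the untreated libraries summed neutrophil markers were 292, 25.4 and 2099 CPM in replicates 1 to 3, with Kdm6b lowest where they were lowest and highest where they were highest. With tamoxifen they were 190, 497 and 516 CPM, and Kdm6b went the other way; their part in its level was not tested. Kdm6a, the X-linked demethylase of the same family, was at 66.7, 72.1 and 73.1 CPM untreated and at 62.4, 63.5 and 74.3 CPM with tamoxifen, with overlapping groups (log2 -0.08, 95% interval -0.31 to 0.15; edgeR adjusted p = 0.626). Uty, its Y-linked copy, had at most 0.600 CPM and was not tested.

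Bap1, the H2A deubiquitinase, was at 100.3, 97.4 and 101.2 CPM untreated and at 78.8, 89.1 and 88.1 CPM with tamoxifen. Each tamoxifen value was below each untreated value. The fold was 0.86 (95% interval 0.75 to 0.98; log2 -0.22, SE 0.08), which did not pass after adjustment over all genes (edgeR adjusted p = 0.111) or under any of the 15 alternatives (adjusted p 0.106 at the lowest). Asxl1, which encodes the BAP1 partner most often mutated in myeloid disease, was at 164.4, 167.1 and 181.4 CPM untreated and at 159.6, 195.2 and 175.4 CPM with tamoxifen, and the groups overlapped (log2 0.05, 95% interval -0.18 to 0.27; edgeR adjusted p = 0.781). Asxl2, its relative, was at 78.4, 85.4 and 85.4 CPM untreated and at 82.2, 94.7 and 95.5 CPM with tamoxifen. Tamoxifen replicate 1 fell among the untreated values, and Asxl2 did not pass (log2 0.13, 95% interval -0.09 to 0.34; edgeR adjusted p = 0.394). In GENCODE M21, genes on the opposite strand overlap Ezh2, Eed, Suz12, Jarid2, Kdm6b, Asxl1 and Asxl2, and Gm45120 overlaps Eed on its own strand. Those at Eed, Asxl1 and Asxl2 (E230029C05Rik, 2500004C02Rik and 1110002L01Rik) are listed in the count files under these symbols. A gene on the opposite strand also overlaps Phf19, which is not a member. The strand setting is not given. Counts of the overlapped genes may therefore include reads of the overlapping genes or lack reads from the shared stretches.

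Of 8 further genes of BAP1 complexes 7 were tested, of which 1 fell, none rose and 6 did not pass (median log2 -0.23). Over all genes tested 8.24% fell and 8.96% rose. Foxk2, a forkhead factor that brings BAP1 to DNA, was at 98.6, 99.2 and 92.6 CPM untreated and at 72.6, 69.1 and 72.9 CPM with tamoxifen. The groups were apart, with a fold of 0.74 (95% interval 0.65 to 0.84; log2 -0.44, SE 0.08; edgeR adjusted p = 0.00843), and the call was lost without untreated replicate 1 (edgeR adjusted p = 0.0553). Its paralogue Foxk1 did not pass (log2 0.07, edgeR adjusted p = 0.817), nor did Hcfc1 (-0.16, 0.382), Ogt, the enzyme that attaches N-acetylglucosamine (-0.23, 0.216), Mbd5 (0.03, 0.935), Mbd6 (-0.26, 0.300) or Kdm1b (-0.29, 0.263). Asxl3, the third ASXL gene, had counts in tamoxifen replicate 2 alone (0.0929 CPM) and was not tested.

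**Figure D4:**
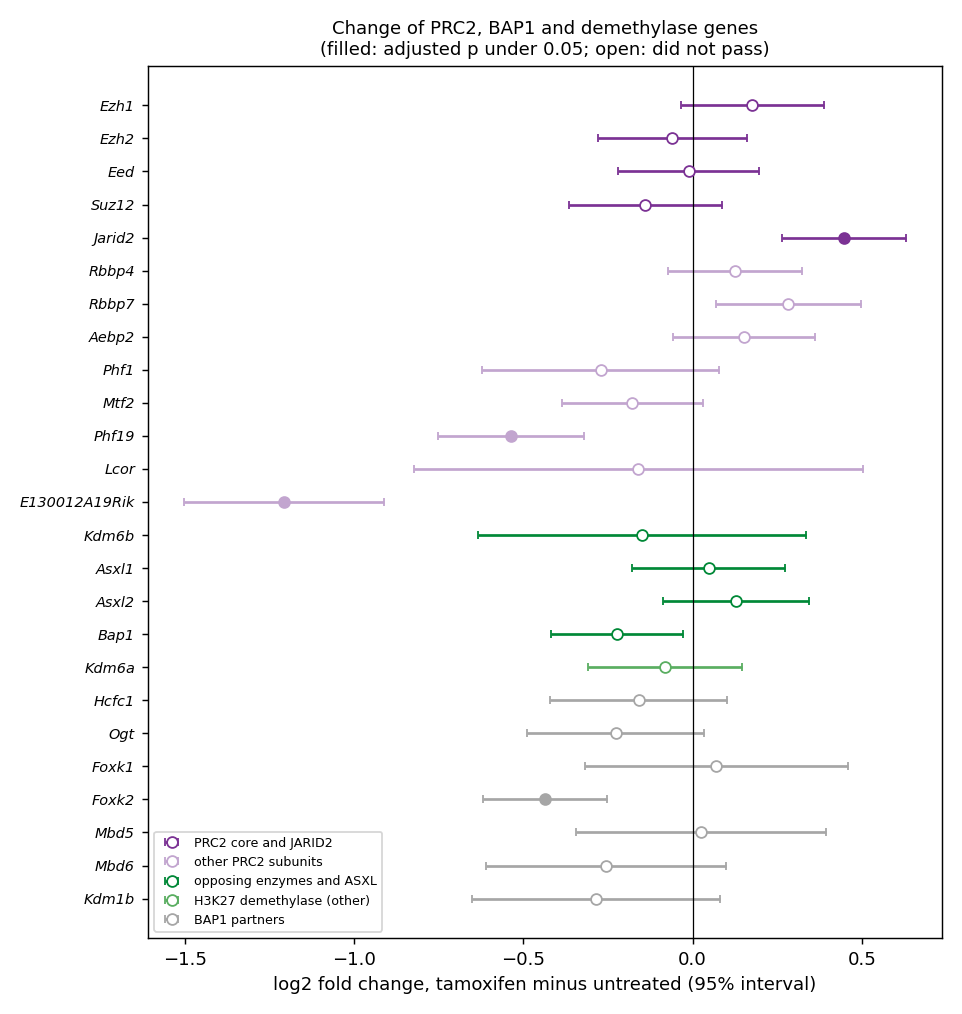
Log2 fold changes (horizontal axis, tamoxifen minus untreated, n = 3 each) with 95% intervals for PRC2, demethylase and BAP1 complex genes; filled points passed at an adjusted p under 0.05 and open points did not. Jarid2 (0.45) is the filled point above 0, and Phf19 (-0.54), E130012A19Rik (-1.21) and Foxk2 (-0.44) are those below.

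Lists of neighbouring chromatin functions were counted beside the members. Of all genes tested, 8.24% fell and 8.96% rose. Over these lists together with the further PRC2, demethylase and BAP1 genes, 8 of 56 tested genes fell and 0 rose. The members are not among the 56, and so Jarid2, which rose, is left out. In the COMPASS complexes that carry KDM6A, 1 of 9 genes fell and none rose, namely the core subunit gene Rbbp5 (log2 -0.35, edgeR adjusted p = 0.0228). In the list for acetylation of H3K27, which excludes methylation of the same residue, and its removal, 3 of 10 fell and none rose: Kat2b (-0.50, edgeR adjusted p = 0.0145) and Kat2a (-0.31, 0.0390), whose products are known mainly for acetylating another residue, lysine 9 of H3, and the corepressor gene Ncor1 (-0.33, 0.0374). The genes of the H3K27 acetyltransferases themselves did not pass, with Ep300 at -0.22 (edgeR adjusted p = 0.473) and Crebbp at -0.14 (0.415). The list for H3K36 methylation, a mark that hinders PRC2, also holds Kdm2a and Kdm4a, whose products remove methyl groups. In this list 1 of 7 fell, Whsc1l1, now Nsd3 (-0.31, edgeR adjusted p = 0.0461), and none rose. Of 14 SWI/SNF remodeller genes, which oppose Polycomb, none passed in edgeR (1 at an unadjusted p under 0.05).

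These calls were less steady than those of Epop and Phf19. Of 15 alternatives, Rbbp5 passed in 9, Kat2b in 12, Ncor1 in 8, Kat2a in 7 and Whsc1l1 in 4. Rbbp5 missed the threshold without any 1 of the untreated libraries or tamoxifen replicate 2, Kat2b without untreated replicate 1 or 3, Ncor1 and Kat2a without any library but tamoxifen replicate 1, and Whsc1l1 without any library. Tamoxifen replicate 1 was the lowest of the 6 libraries for 33 of the 65 genes of these chromatin lists and the members (50.8%), against 23.6% of all genes tested, and for 4 of the 9 members; its part in the differences was not tested.

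Most textbook targets of PRC2, among them the listed HOXC and HOXD genes, were at or near 0 in both groups. Of 33 listed, 25 were too low to be tested, none of them above 0.650 CPM in any library, and 9 had no count at all. Of the 8 tested none rose and 1 fell, Igf2bp3, an oncofetal RNA-binding protein gene (126.1 to 136.0 CPM with tamoxifen, 154.4 to 160.0 CPM untreated; log2 -0.28, edgeR adjusted p = 0.0452), a call lost without any 1 of the 6 libraries (adjusted p 0.0515 to 0.173). The median log2 difference of the 8 was 0.04. An unadjusted p under 0.05 in edgeR was reached by 4 of them, against 31.9% of all genes tested. Igf2bp3 and Hmga2 (log2 -0.55) were lower with tamoxifen, and Gata3 and Cdkn2b (1.22) were higher. The highest was Gata3 at 1.35, with 13.2, 2.37 and 4.65 CPM in tamoxifen replicates 1 to 3 and 2.09 to 3.30 CPM untreated. The 3 listed genes of CDK inhibitors were among the 8: Cdkn2a at 10.8 to 19.4 CPM with tamoxifen and 12.7 to 20.3 CPM untreated, Cdkn1c at 6.37 to 20.04 and 3.26 to 11.5 CPM, and Cdkn2b at 0.750 to 2.23 and 0.424 to 0.994 CPM. Each overlapped between the groups, and none passed. E2F and proliferation genes, with which Ezh2 usually rises and falls, gave none of 16 that passed in edgeR (2 at an unadjusted p under 0.05; median log2 0.07).

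**Figure D5:**
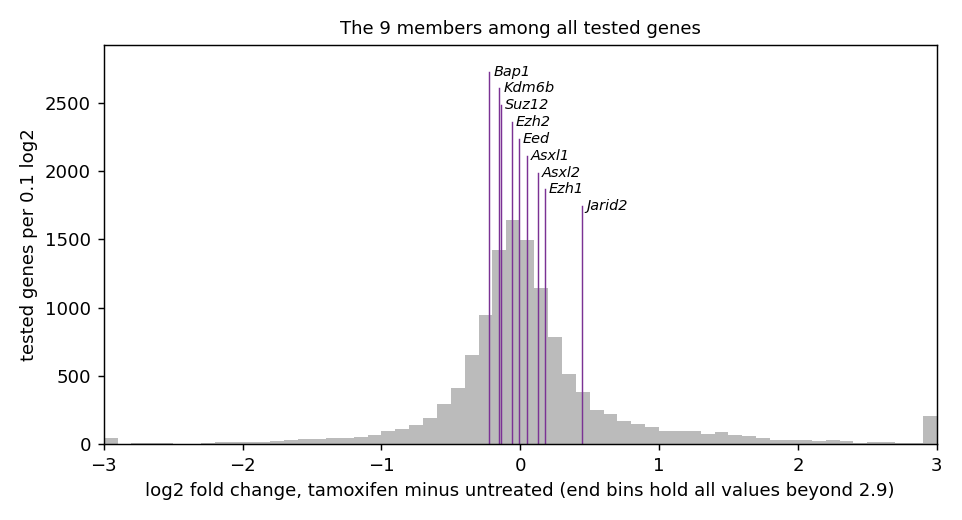
Number of tested genes per 0.1 log2 of fold change (grey bars, all 12729 genes, tamoxifen minus untreated, end bins holding all values beyond), with a line for each member. The lines run from Bap1 at -0.22 to Jarid2 at 0.45. The absolute change of Jarid2 exceeded that of 70.9% of the genes tested.

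The genes whose log2 CPM followed each member most closely over the 6 libraries were taken from 11042 genes, as a description. For Jarid2 these were the collagen gene Col4a5 and the antiviral gene Oasl2, which rose by 5.68 and 3.61 on the log2 scale, far more than Jarid2. Bap1 was followed by Lrfn1 (log2 -1.09, edgeR adjusted p = 0.0557) and Nsf (-0.39, edgeR adjusted p = 0.0297). For Ezh2 they were Mre11a and Usp28, for Suz12 Zdhhc21 and Trim33, for Eed Slc30a1 and Tmem199, for Ezh1 Fars2 and Bub3, for Kdm6b 2310047M10Rik and Pxk, for Asxl1 Kif21b and Slc22a15 and for Asxl2 Kif20b and Ankfy1, none of which passed. With 6 libraries and this many genes, close matches are found for any pattern.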

How the data were processed

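RNA was measured in 6 libraries, grouped by sample title. The deposited files hold raw whole-number counts per gene symbol. The submitters' processing notes name build mm9, TopHat2 2.1.0, featureCounts, FastQC and DESeq2, with no role or order. Annotation, strand setting and treatment of reads with several positions: not given in the sources used here. Had reads with several positions been dropped, genes with close copies would be counted too low.

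TMM factors (0.986 to 1.007) came from edgeR 4.0.16 under R 4.3.3, and filterByExpr with a minimum of 10 counts kept 12729 of 24015 genes. All 6 libraries entered edgeR's quasi-likelihood F test, with group as the only term, and p was adjusted by Benjamini-Hochberg across the tested genes. A standard error is the log2 fold change, without its sign, divided by the root of F; 95% intervals use it with the fit's degrees of freedom and are not adjusted for multiple tests. Log2 CPM for plots and likeness has a prior count of 2. The code was tested on simulated data.

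Named genes are the members, all genes of the PRC2, H3K27 demethylase and BAP1 lists, up to 4 passing genes with the smallest p of each other list, Map3k14, and 2 genes per member with the highest Pearson correlation (mean log2 CPM at least 1). Other genes named come from the marker and pathway lists, or overlap a member. Members and lists were chosen with earlier results of these data known. No library pair within a group agreed within sampling noise (chi-square per degree of freedom 11.6 to 50.7). Alternatives were other scaling factors, other filters, DESeq2 1.42.0, voom in limma 3.58.1, a block for the replicate number, a required 1.5-fold change and leaving out each library.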

Additional observations from a re-analysis of the deposited data

How the results depend on the processing

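With a change of more than 1.5-fold required, 647 genes passed instead of 2189 (420 rose and 227 fell) and 0 members did. Leaving out 1 library at a time gave 1029 to 3249 genes that passed, 586 to 1657 that rose, 443 to 1592 that fell and 0 to 1 members; the lowest came without untreated replicate 1, the highest without tamoxifen replicate 1, and leaving out a library also leaves fewer samples. Scaling factors, filters, DESeq2, limma voom and the block did not change which member passed: Jarid2 passed in 13 of 15 alternatives (log2 0.41 to 0.48). The 3 ratios kept their direction in all alternatives: -0.33 to -0.13 for Ezh2 to Ezh1, 0.48 to 0.57 for Jarid2 to the core and 0.04 to 0.12 for Asxl2 to Asxl1.

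Same-numbered libraries did not deviate together in every pair (correlations of 0.12, -0.11 and 0.11), and not every library correlated best with its own number, so the numbers were not taken as pairs. With the replicate block, 1792 genes passed (959 rose, 833 fell), Jarid2 had an adjusted p of 0.0218, the ratios differed by -0.23 (Ezh2 to Ezh1), 0.52 (Jarid2 to core) and 0.08 (Asxl2 to Asxl1), and Rbbp5, Ncor1, Kat2a, Whsc1l1 and Igf2bp3 missed the threshold (adjusted p 0.0561 to 0.105).

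Directions that turned belonged to genes that did not pass in either fit, and the cause was not tested. With upper quartile factors Eed was at 0.022 and Pxk at 0.016, and requiring more than 1 CPM in 3 libraries put Eed at 0.0036. Leaving out 1 library at a time, log2 differences of members ran as follows: Ezh2 from -0.10 to 0.019 (turning without untreated replicate 2), Eed from -0.055 to 0.038 (turning without untreated replicate 1 or tamoxifen replicate 1), Kdm6b from -0.33 to 0.059 (turning without untreated replicate 3 or tamoxifen replicate 3), Asxl1 from -0.032 to 0.12 (turning without tamoxifen replicate 2). Those of Lcor, Foxk1 and Mbd5 ran, in turn, Lcor from -0.35 to 0.080 (turning without tamoxifen replicate 1), Foxk1 from -0.10 to 0.25 (turning without tamoxifen replicate 2), Mbd5 from -0.059 to 0.13 (turning without untreated replicate 1 or tamoxifen replicate 2). Among the genes of like pattern the ranges were Usp28 from -0.27 to 0.0022 (turning without untreated replicate 2), Slc30a1 from -0.13 to 0.028 (turning without untreated replicate 1 or tamoxifen replicate 1), Tmem199 from -0.067 to 0.16 (turning without untreated replicate 2 or untreated replicate 3 or tamoxifen replicate 3), 2310047M10Rik from -0.17 to 0.053 (turning without untreated replicate 3 or tamoxifen replicate 3), Pxk from -0.080 to 0.049 (turning without untreated replicate 3 or tamoxifen replicate 3), Kif21b from -0.041 to 0.36 (turning without tamoxifen replicate 2). Uty, Asxl3 and Ezhip, at 0 to 12 counts a library, were too shallow to test.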
